A study of Mus musculus with 9 samples.

Results

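Iron and heme handling was followed through 8 genes, Hmox1, Blvrb, Fth1, Ftl1, Slc40a1, Tfrc, Trf and Spic, which were chosen by name and each matched 1 of the 37801 entries used from the expression table. RNA-seq had been performed on 9 mouse libraries, 3 in each of 3 groups. Tyr-NrasQ61K mice carry activated NrasQ61K under the tyrosinase promoter, which is active in melanocytes, and are wild type for MHC class II (labelled Cre-negative). Tyr-NrasQ61K MHCII-KO mice (MHCII-KO below) carry the same transgene and are labelled MHCII-KO and Cre-positive. WT mice lack the transgene and are wild type for MHC class II. The strain is given as FVB/NJ for WT and as an FVB/NJ cross for both NrasQ61K groups, so that the transgene and the strain label cannot be told apart. The protocol text describes the wild-type mice as albino littermates. The driver of Cre, the MHC class II gene removed, and the age and sex of the mice were not given in the sources used here. Whether the 3 libraries of a group represent different animals is not stated in the labels, and p-values here cover only library-to-library spread, which may be technical.

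Mammalian cells take up iron bound to transferrin through the transferrin receptor, store it in ferritin, and release it through ferroportin. Macrophages also recover iron from the heme of engulfed red cells, which heme oxygenase opens to biliverdin, iron and carbon monoxide. When iron is scarce, iron regulatory proteins bind hairpins in the transcripts called iron-responsive elements, which block translation when they lie in the 5′ UTR and protect the mRNA when they lie in the 3′ UTR. A transcript level of ferritin or ferroportin is therefore not a measure of the protein.

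The 8 genes were searched for the core of this element, a C, a stem of 5 base pairs and the loop CAGTGN, in the UTRs of their GENCODE M21 transcripts (mouse build mm10). It was found 7 times in 4 of the 8 genes, once in the first exon of Fth1 (chr19:9982734-9982758, plus strand), Ftl1 (chr7:45459781-45459805, minus strand) and Slc40a1 (chr1:45925467-45925491, minus strand), and 4 times in exon 19 of Tfrc, in the 3′ UTR (chr16, plus strand, elements starting at 32631221, 32631600, 32631665 and 32631712). Each element is shown over 25 bases, with the bulged C and the 6 bases of the loop in capitals, because these hairpins divide the genes into those whose translation and those whose mRNA stability is known to be regulated by iron.
Fth1, 5′ UTR: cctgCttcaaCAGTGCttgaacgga
Ftl1, 5′ UTR: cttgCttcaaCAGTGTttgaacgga
Slc40a1, 5′ UTR: acttCagctaCAGTGTtagctaagt
Tfrc, 3′ UTR, element 1: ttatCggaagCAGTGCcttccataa
Tfrc, 3′ UTR, element 2: ttatCgggagCAGTGTcttccataa
Tfrc, 3′ UTR, element 3: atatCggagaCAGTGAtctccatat
Tfrc, 3′ UTR, element 4: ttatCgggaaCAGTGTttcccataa
The elements of both ferritin chains matched at 23 of 25 positions, and that of Slc40a1 matched each of them at 13. Among themselves the Tfrc elements matched at 17 to 23 positions. The same pattern was present in the 5′ UTR of 0.148% of 20916 genes and in the 3′ UTR of 0.613% of 21039 genes, on the transcribed strand. A match of these letters is a description of the transcript, and none was found in the UTRs of Hmox1, Blvrb, Trf and Spic with this pattern.

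The libraries were labelled nevus melanocytes, whereas the study describes RNA from lymph nodes. In every library the lymphocyte genes exceeded the melanocyte genes: 15 T cell genes summed to 269.6 to 663 FPKM (fragments scaled to transcript length and to the fragments mapped per library) and 11 B cell genes to 740.0 to 2786 FPKM, against 10.96 to 23.8 FPKM for 13 melanocyte genes. Of the melanocyte genes, Dct was the only one called in a comparison, with 2.77 to 5.81 FPKM in Tyr-NrasQ61K, 0.847 to 3.25 FPKM in MHCII-KO and 0 to 0.0508 FPKM in WT libraries. The class II genes did not separate the MHCII-KO libraries: H2-Ab1 was at 108 to 271 FPKM in MHCII-KO and at 149 to 276 FPKM in Tyr-NrasQ61K libraries, and H2-Aa at 362 to 634 FPKM in MHCII-KO and at 276 to 802 FPKM in Tyr-NrasQ61K libraries. On the first principal component (32.1% of the variance), replicate 2 of Tyr-NrasQ61K and of MHCII-KO lay at the positive end (101.9 and 78.6). WT replicates 1 and 3 lay at the negative end (-74.1 and -73.4), and the remaining libraries between -30.9 and 21.8. Values below are log2 fold changes of FPKM + 1 fitted by limma with Benjamini-Hochberg adjustment over the 16587 genes with at least 1 FPKM in at least 3 libraries, and all 8 genes passed this filter. Whole nodes were measured, so that fewer cells of a type and less RNA per cell cannot be told apart.

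None of the 8 genes was called at an adjusted p of at most 0.05 in any comparison by limma. The background was 0.235% of all genes called in Tyr-NrasQ61K against WT, 0.145% in MHCII-KO against WT, 0.0482% in MHCII-KO against Tyr-NrasQ61K and 0.398% for both NrasQ61K groups against WT. At an unadjusted p under 0.05, 2 of 8 passed in each comparison with WT, Fth1 (higher) and Trf (lower), where 15.2%, 15% and 21.7% of all genes passed in the same 3 comparisons. For MHCII-KO against Tyr-NrasQ61K the count was 0 of 8, where 1.52% of all genes passed. The comparisons with WT use the same WT libraries and are not independent of each other.

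**Figure D1:**
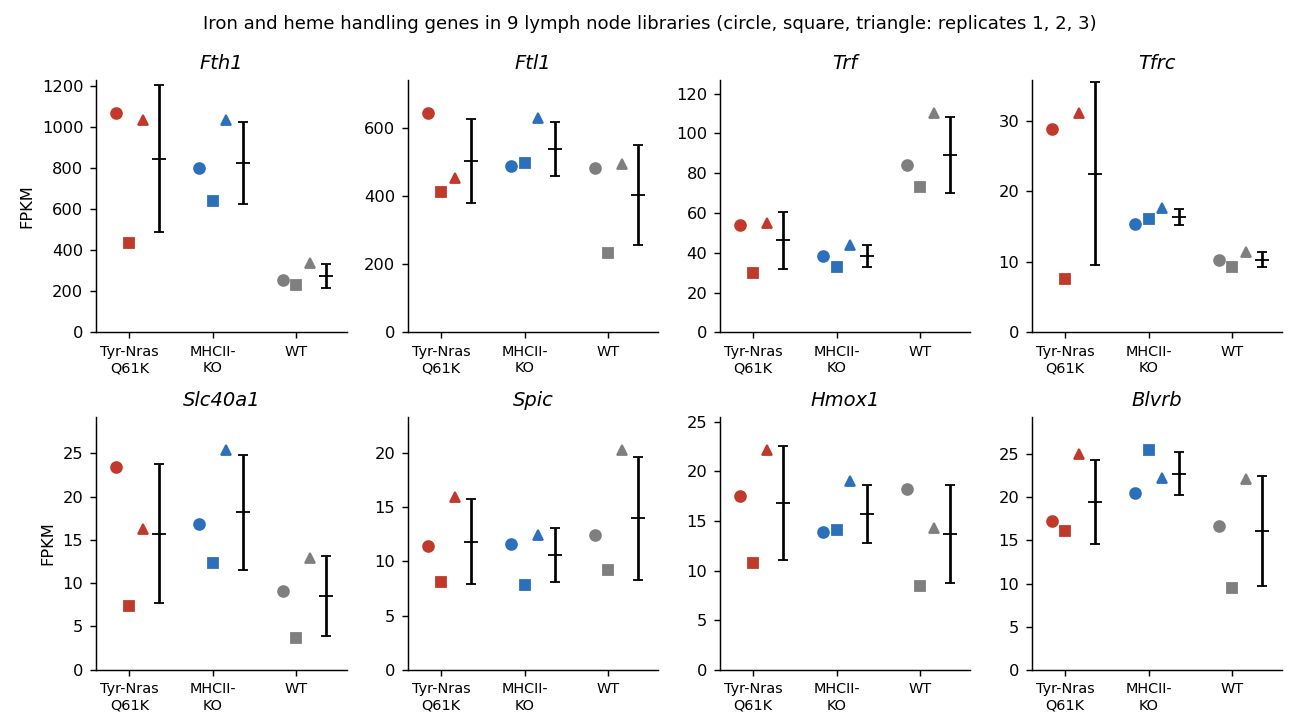
FPKM of the 8 genes in each library, by group (circle, square and triangle are replicates 1, 2 and 3), with the group mean and SD as a black bar (n = 3). Fth1 lies above every WT library in all 6 NrasQ61K libraries and Trf lies below every WT library, while the groups overlap for Ftl1, Slc40a1, Spic, Hmox1 and Blvrb.

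Storage genes were the most abundant of the 8. Fth1 encodes the ferritin heavy chain, which oxidizes iron as it enters the ferritin shell. It was measured at 1071, 437 and 1035 FPKM in Tyr-NrasQ61K and at 801, 639 and 1037 FPKM in MHCII-KO libraries, against 253, 230.0 and 339 FPKM in the WT libraries. All 6 NrasQ61K libraries lay above the highest WT library, with Tyr-NrasQ61K replicate 2 nearest to it. The means were 848 ± 356 FPKM in Tyr-NrasQ61K, 826 ± 199.9 FPKM in MHCII-KO and 274 ± 57.3 FPKM in WT nodes (SD, n = 3 each). The means of Tyr-NrasQ61K and MHCII-KO were thus 3.09 and 3.01 times that of WT.

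Fitted by limma, the Fth1 difference was 1.54 (SE 0.45, adjusted p = 0.242) in Tyr-NrasQ61K against WT and 1.58 (SE 0.45, adjusted p = 0.301) in MHCII-KO against WT. For both NrasQ61K groups against WT it was 1.56 (95% interval 0.67 to 2.44, limma adjusted p = 0.144). The difference passed the adjusted threshold in none of the 3, although the intervals excluded 0. Groups of this kind were not rare: 8.18%, 7.97% and 4.52% of all genes lay above every WT library in the same 3 comparisons. Scaling the libraries by median ratios brought the adjusted p for both groups against WT to 0.0342 and quantile normalization to 0.0215, while the limma fit without both replicate 2 libraries gave 1.85 with an adjusted p of 0.112.

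Ranked by mean FPKM among 11902 protein-coding genes, Fth1 stood at 8 in Tyr-NrasQ61K and 9 in MHCII-KO nodes, against 91 in WT nodes. Over the 6 NrasQ61K libraries its mean exceeded the WT mean by 563 FPKM, the second largest gain after the predicted gene Gm10800. A single near-identical copy of its coding sequence, Gm6977, was listed at 0.203% to 12.3% of the Fth1 level, with the highest share in Tyr-NrasQ61K replicate 3.

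Ftl1 encodes the ferritin light chain, which supports the mineral core. It was at 646, 414 and 454 FPKM in Tyr-NrasQ61K and at 489, 498 and 631 FPKM in MHCII-KO libraries, against 484, 234 and 496 FPKM in WT libraries. The groups overlapped, with WT replicate 2 the lowest of the 9. Tyr-NrasQ61K nodes differed from WT by 0.37 (95% interval -0.55 to 1.29) and MHCII-KO nodes by 0.48 (-0.44 to 1.40), neither beyond the spread.

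The Ftl1 level is uncertain, because 7 genes match at least 90% of its coding sequence and 6 of them had an entry in the table. Together these 6 were listed at 63.6% to 127% of the Ftl1 level in the same library, chiefly Ftl1-ps1, Gm15590 and Ftl2-ps, and how reads were divided among them is not given in the sources used here. With the copies added, the Ftl1 mean was 933 FPKM in Tyr-NrasQ61K, 904 FPKM in MHCII-KO and 664 FPKM in WT nodes.

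The balance of the chains was compared within each library, which removes any scaling between libraries. This ratio and those below were chosen after the values were seen and are descriptions. The ratio of Hmox1 to Blvrb, looked at as well, overlapped, at 0.554 to 1.02 in NrasQ61K and 0.645 to 1.09 in WT libraries. How often gene pairs in general separate the groups was not counted. Fth1 stood at 1.66, 1.06 and 2.28 times Ftl1 in Tyr-NrasQ61K and at 1.64, 1.28 and 1.64 times in MHCII-KO libraries, against 0.524, 0.981 and 0.683 times in WT libraries. As listed, heavy chain FPKM thus exceeded light chain FPKM in each of the 6 NrasQ61K libraries and in none of the WT libraries. With the copies of both genes added it did so only in Tyr-NrasQ61K replicates 1 and 3, at 1.01 and 1.13 times, and the ratio was 0.922 ± 0.264 in Tyr-NrasQ61K, 0.915 ± 0.136 in MHCII-KO and 0.446 ± 0.138 in WT nodes (SD, n = 3 each). The groups still did not overlap, but Tyr-NrasQ61K replicate 2 at 0.624 lay close to WT replicate 2 at 0.595.

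Transferrin ran the other way. Trf, which encodes the iron carrier of plasma, was at 53.9, 29.8 and 55.0 FPKM in Tyr-NrasQ61K and at 38.4, 32.8 and 44.0 FPKM in MHCII-KO libraries, against 84.2, 73.2 and 110.4 FPKM in WT libraries. Every NrasQ61K library lay below the lowest WT library. Groups lay below WT without overlap for 10.5% of all genes in Tyr-NrasQ61K, 23.4% in MHCII-KO and 8.44% in both together. The means were 0.518 and 0.430 times the WT mean of 89.3 ± 19.1 FPKM (SD, n = 3).

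The fitted Trf difference was -0.96 (SE 0.31, limma adjusted p = 0.276) in Tyr-NrasQ61K against WT and -1.19 (SE 0.31, limma adjusted p = 0.271) in MHCII-KO against WT. For both groups it was -1.08 (95% interval -1.69 to -0.46, limma adjusted p = 0.146). Trf thus missed the adjusted threshold in all 3, and without both replicate 2 libraries the last value was -0.88 with a limma adjusted p of 0.235. Its entry overlaps Gm20425, which was listed at 2.84% to 9.22% of the Trf level.

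Set against each other, Fth1 and Trf gave ratios that hardly varied within WT. Fth1 stood at 19.9, 14.7 and 18.8 times Trf in Tyr-NrasQ61K and at 20.9, 19.5 and 23.6 times in MHCII-KO libraries, against 3.01, 3.14 and 3.07 times in WT libraries. Replicate 2 was the lowest library for both genes in each group, and the ratio varied less within a group than either level did.

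**Figure D2:**
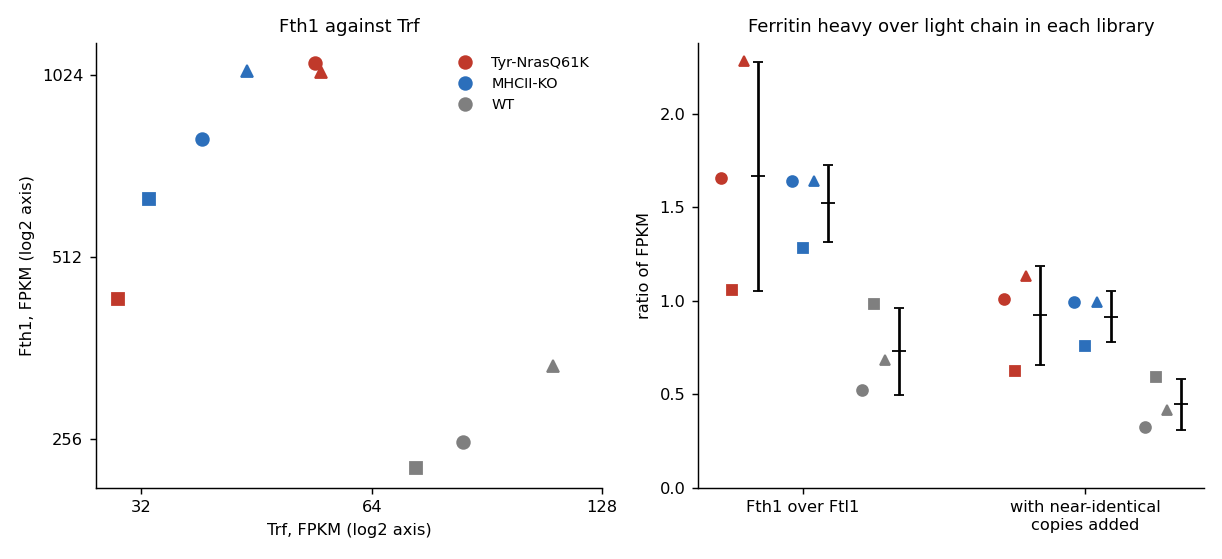
Left, Fth1 against Trf FPKM in the 9 libraries, both on log2 axes, where the 3 WT libraries lie low and to the right of the 6 NrasQ61K libraries. Right, the ratio of Fth1 to Ftl1 FPKM in each library in the order Tyr-NrasQ61K, MHCII-KO and WT (colours as on the left, shapes are replicates 1 to 3, black bars are mean and SD, n = 3), first as listed and then with near-identical copies added, which brings the group means to 0.922, 0.915 and 0.446.

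The receptor transcript differed less clearly between groups. Tfrc, the transferrin receptor, was at 28.8, 7.59 and 31.1 FPKM in Tyr-NrasQ61K and at 15.4, 16.004 and 17.6 FPKM in MHCII-KO libraries, against 10.3, 9.29 and 11.4 FPKM in WT libraries. The Tyr-NrasQ61K group held both the highest values and, in replicate 2, the lowest of all 9, while the MHCII-KO libraries lay wholly above WT. Limma differences from WT were 0.84 (SE 0.46, adjusted p = 0.368) and 0.62 (SE 0.46, adjusted p = 0.461). Without Tyr-NrasQ61K replicate 2 Tyr-NrasQ61K against WT gave 1.45 with a limma adjusted p of 0.0603, so that this library moved the value by more than 1.5 times. Relative to Trf in the same library, Tfrc was at 0.255 to 0.566 in the 6 NrasQ61K libraries and at 0.103 to 0.127 in WT libraries. Tfrc alone did not separate Tyr-NrasQ61K from WT, whereas Trf, the divisor, was already below every WT library in all 6.

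Slc40a1 encodes ferroportin, the only known iron exporter of mammalian cells. Its level was 23.4, 7.42 and 16.3 FPKM in Tyr-NrasQ61K and 16.8, 12.3 and 25.4 FPKM in MHCII-KO libraries, against 9.04, 3.63 and 12.9 FPKM in WT libraries. This was the most variable of the 8 genes, with 6.99-fold between the highest and the lowest library, and WT overlapped both other groups. The means were 15.7 ± 8.03, 18.2 ± 6.64 and 8.53 ± 4.67 FPKM in Tyr-NrasQ61K, MHCII-KO and WT nodes (SD, n = 3 each). Differences from WT were 0.82 (limma adjusted p = 0.412) and 1.09 (limma adjusted p = 0.335), and without WT replicate 2 they were 0.37 and 0.64.

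Genes of heme breakdown overlapped between all groups. Hmox1, the inducible heme oxygenase, was at 17.6, 10.7 and 22.2 FPKM in Tyr-NrasQ61K and at 13.9, 14.1 and 19.0 FPKM in MHCII-KO libraries, against 18.3, 8.47 and 14.3 FPKM in WT libraries. No group stood apart. The differences from WT were 0.28 (95% interval -0.50 to 1.07) and 0.23 (-0.55 to 1.02), and leaving out WT replicate 2 turned them to -0.0020 and -0.056.

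Blvrb encodes biliverdin reductase B, which reduces flavins and one form of biliverdin. It was at 17.2, 16.1 and 25.1 FPKM in Tyr-NrasQ61K and at 20.5, 25.5 and 22.3 FPKM in MHCII-KO libraries, against 16.7, 9.44 and 22.2 FPKM in WT libraries. WT replicate 2 was the lowest of the 9, and the other libraries overlapped. Against WT, the difference of Tyr-NrasQ61K was 0.31 (95% interval -0.43 to 1.04) and that of MHCII-KO 0.54 (-0.19 to 1.27).

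Spic, a transcription factor that heme induces and that red pulp macrophages of the spleen need, was at 11.4, 8.11 and 15.96 FPKM in Tyr-NrasQ61K and at 11.6, 7.79 and 12.5 FPKM in MHCII-KO libraries, against 12.4, 9.20 and 20.3 FPKM in WT libraries. Replicate 2 was the lowest library of each group, and the groups overlapped. The differences from WT were -0.20 (95% interval -0.99 to 0.59) and -0.32 (-1.11 to 0.47). Slc40a1, which Spic is known to support in macrophages, was at 0.915 to 2.06 times Spic in the 6 NrasQ61K libraries and at 0.395 to 0.729 times in the WT libraries.

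**Figure D3:**
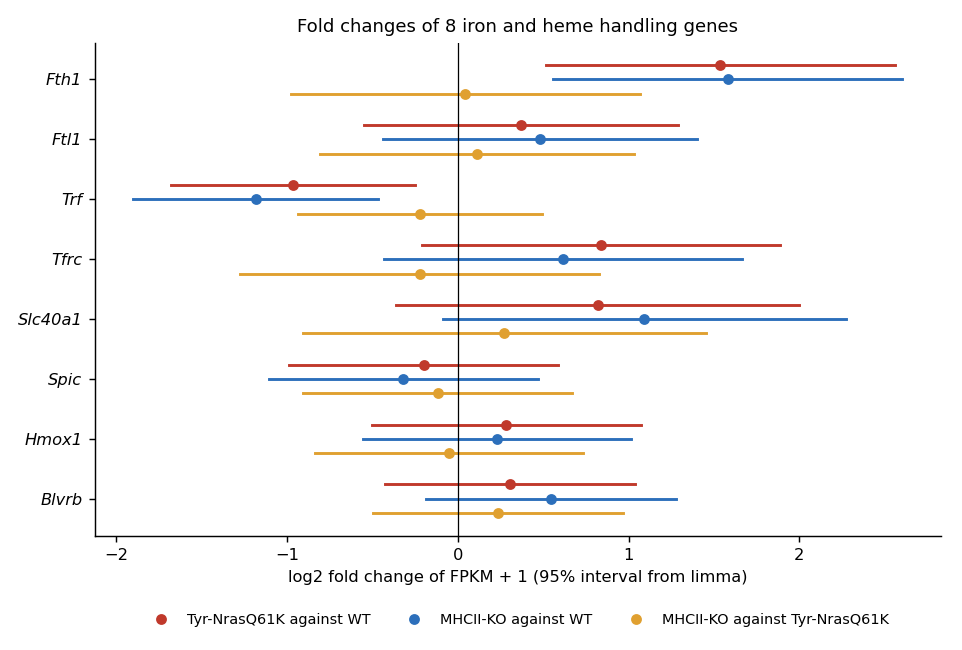
Log2 fold change of FPKM + 1 for each gene, with its 95% interval from limma, in Tyr-NrasQ61K against WT (red), MHCII-KO against WT (blue) and MHCII-KO against Tyr-NrasQ61K (orange). Only Fth1 and Trf have intervals that exclude 0, in both comparisons with WT, and all 8 orange intervals include 0.

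Loss of MHC class II as labelled was examined by setting MHCII-KO against Tyr-NrasQ61K. The Fth1 difference was 0.04 (95% interval -0.98 to 1.07) and that of Trf -0.22 (-0.94 to 0.49). For Slc40a1 it was 0.27 (-0.91 to 1.45), and for Tfrc -0.22 (-1.27 to 0.83). The groups overlapped for all 8 genes, and 3.8% of all genes did not overlap. Intervals of this width do not show that the genes were alike in both groups. A term for the run of label identifiers left the Fth1 value at 0.02 and that of Trf at -0.24.

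Over the 8 genes the median difference was 0.34 in Tyr-NrasQ61K against WT, 0.51 in MHCII-KO against WT and -0.01 in MHCII-KO against Tyr-NrasQ61K. Over all genes tested the medians were -0.12, -0.22 and -0.08. In the first 2 comparisons 6 of 8 values were above 0, Trf and Spic being below.

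The order of the levels, which FPKM gives per transcript length, differed at the top between WT and the other groups only for FPKM as listed. Ftl1 (405 ± 148 FPKM) and Fth1 (274 ± 57.3 FPKM) led in WT nodes and overlapped, followed by Trf. In both NrasQ61K groups Fth1 led, then Ftl1, then Trf, with Fth1 and Ftl1 overlapping in Tyr-NrasQ61K but not in MHCII-KO libraries. With near-identical copies added to both, Ftl1 had the higher mean in all 3 groups, with Fth1 at 893, 831 and 276 FPKM in Tyr-NrasQ61K, MHCII-KO and WT nodes against the Ftl1 means given above. Below these, Tfrc, Blvrb, Hmox1, Slc40a1 and Spic had group means between 8.53 and 22.8 FPKM, and neighbours in the order of means overlapped in every group, except Hmox1 and Spic in MHCII-KO libraries.

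Across the 9 libraries the genes varied together to different degrees, given here as Pearson r of log2(FPKM + 1) without a test, since groups and depth are shared by all points. The closest pair was Slc40a1 with Ftl1 (r = 0.916), then Slc40a1 with Fth1 (r = 0.863) and Fth1 with Tfrc (r = 0.838). Trf was closest to Spic (r = 0.697) and opposite to Fth1 (r = -0.524). Outside the 8 genes, the protein-coding genes most like Fth1 were Atp6v0d2, Samd8 and Mmp12 (r = 0.974, 0.974 and 0.972), and those most like Trf were Rgs18, Zfp229 and Cd209d (r = 0.988, 0.986 and 0.981). Slc40a1 was most like Pla2g7 (r = 0.976), Ftl1 like Lgmn (r = 0.984), Tfrc like Creg1 (r = 0.963), Hmox1 like Metrnl (r = 0.965), Blvrb like Flcn (r = 0.948) and Spic like Actg1 (r = 0.974).

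Among the summed marker lists, only those of lipid-associated macrophages and adipocytes separated every NrasQ61K library from WT. The FPKM of 10 genes of lipid-associated macrophages, a phagocyte state marked by Trem2 and Gpnmb, gave sums of 377 to 868 for Tyr-NrasQ61K, of 528 to 649 for MHCII-KO and of 136 to 235 for WT libraries. No gene of the 10 was at 0 in every library. For both NrasQ61K groups against WT, 3 of the 10 were called by limma, all higher, where 0.398% of all genes were called. At an unadjusted p under 0.05, 8 were higher and 0 lower, where 21.7% of all genes passed. Only 8 of the 10 values were above 0, with a median of 1.64, against -0.16 over all genes. The list was chosen with earlier results of these data known, so these counts are descriptions. Gpnmb rose by 5.20 (SE 0.38, limma adjusted p = 0.00122) and 5.14 (SE 0.38, adjusted p = 0.00177) in Tyr-NrasQ61K and MHCII-KO against WT, and Trem2 by 3.43 (limma adjusted p = 0.00491) and 3.41 (adjusted p = 0.00747). Atp6v0d2, the gene most like Fth1, belongs to the same list and rose by 3.16 in both NrasQ61K groups against WT (limma adjusted p = 0.0420).

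The sum of general macrophage genes, in which Lyz2 was the highest gene, overlapped between all groups: the 15 of them summed to 1025 to 2102, 1278 to 1939 and 943 to 2015 FPKM in Tyr-NrasQ61K, MHCII-KO and WT libraries. For both NrasQ61K groups against WT none of the 15 was called by limma, where 0.398% of all genes were called. At an unadjusted p under 0.05, 5 were lower and 0 higher, where 21.7% of all genes passed in either direction. The median of the 15 was -0.38, against -0.16 over all genes. Red pulp and sinus macrophage genes (16 in the table, 1 at 0 in every library) summed to 134 to 231, 135 to 289 and 197 to 470 FPKM in the same groups. Of these, C6 fell by 3.04 and 3.08 against WT (limma adjusted p = 0.00299 and 0.00396), and it was the only one called. By sign the list went both ways, with 7 of the 13 tested above 0 in Tyr-NrasQ61K against WT (median 0.11) and 5 of 13 in MHCII-KO against WT (median -0.14). At an unadjusted p under 0.05, 0 were higher and 4 lower in each, where 15.2% and 15% of all genes passed. For both groups 1 was higher and 5 lower, where 21.7% passed. Marco, the highest gene of the list, was at 13.9 to 40.0 FPKM in NrasQ61K and 51.8 to 142 FPKM in WT libraries. Timd4 was at 2.15 to 14.3 and 41.9 to 98.3 FPKM. Adipocyte genes, 12 with none at 0 throughout, gave sums of 64.2 to 235 and 89.2 to 220.3 FPKM in Tyr-NrasQ61K and MHCII-KO libraries, against 384 to 668 FPKM in WT libraries. Lep, Plin4 and Plin1 fell by 2.80, 2.27 and 1.95 in both NrasQ61K groups against WT (limma adjusted p = 0.0282, 0.0283 and 0.0445).

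Red cell genes, 12 in the table, summed to 77.0 to 112 FPKM in Tyr-NrasQ61K, 50.3 to 295 FPKM in MHCII-KO and 71.1 to 229 FPKM in WT libraries, overlapping as the heme breakdown genes did. Proliferation genes, 15 in all, summed to 84.3 to 95.2, 66.5 to 79.3 and 78.9 to 161 FPKM in Tyr-NrasQ61K, MHCII-KO and WT libraries. The 15 T cell genes summed to 293 to 636 FPKM in Tyr-NrasQ61K, 269.6 to 450.2 FPKM in MHCII-KO and 413 to 663 FPKM in WT libraries. None was called by limma for both NrasQ61K groups against WT, where 0.398% of all genes were called. At an unadjusted p under 0.05, 8 were lower and 1 higher, where 21.7% of all genes passed in either direction. The median of these T cell genes was -0.75, against -0.16 over all genes. The part of any of these cell types in the levels of the 8 genes was not tested.

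**Figure D4:**
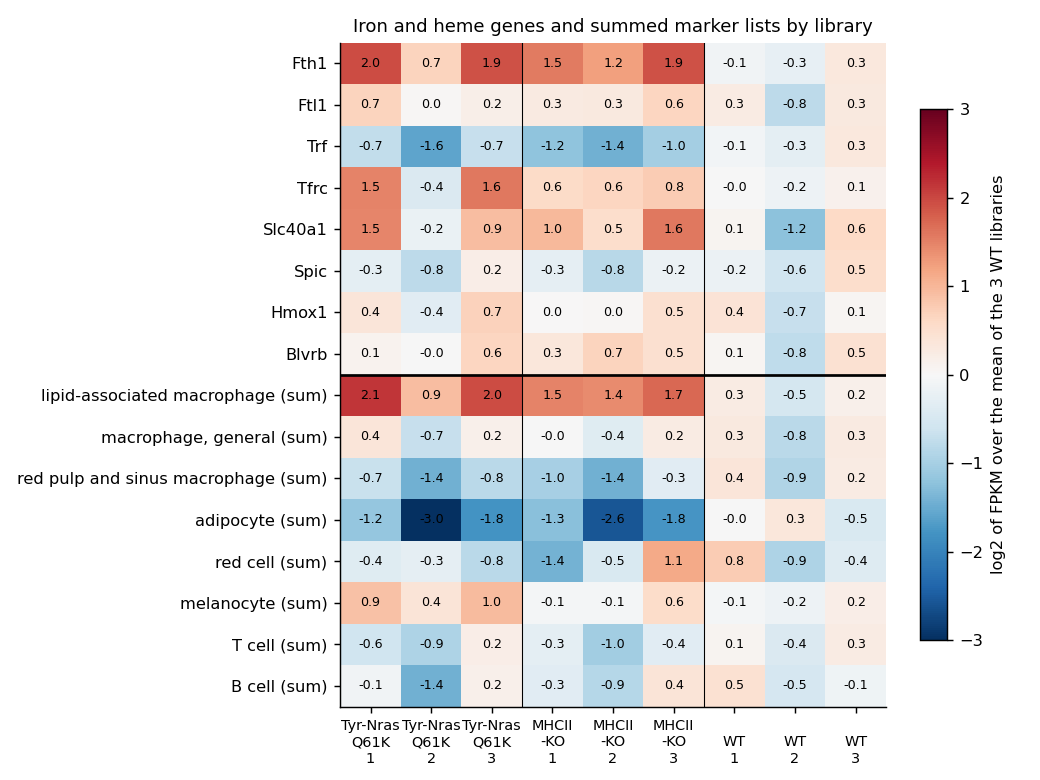
Log2 of FPKM over the mean of the WT libraries, per library (columns), for the 8 genes (upper rows) and for summed marker lists (lower rows). Fth1 and the lipid-associated macrophage sum are above the WT mean in all 6 NrasQ61K libraries, while Trf and the adipocyte sum are below it in all 6.

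The wider iron and heme genes were counted from 7 lists by role, without the 8 genes, which held 64 further genes in the table, 51 of them tested. None was called by limma in any comparison. At an unadjusted p under 0.05, 6 were higher and 4 lower in Tyr-NrasQ61K against WT, 3 higher and 5 lower in MHCII-KO against WT, 0 in MHCII-KO against Tyr-NrasQ61K, and 6 higher and 7 lower for both groups against WT. Over all genes tested, 15.2%, 15%, 1.52% and 21.7% passed this threshold in the same 4 comparisons, in either direction. The median difference of the 51 was -0.10, -0.11, -0.03 and -0.11, against -0.12, -0.22, -0.08 and -0.16 over all genes.

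Among uptake genes, Slc11a1, which pumps iron out of the phagosome of macrophages, was at 34.6, 37.3 and 40.2 FPKM in Tyr-NrasQ61K and at 25.0, 33.2 and 36.3 FPKM in MHCII-KO libraries, against 15.5, 7.95 and 18.6 FPKM in WT libraries. Every NrasQ61K library lay above every WT library, as for 4 of the 51 genes and 4.52% of all genes. Replicate 2 was not low in either NrasQ61K group, unlike for Fth1. For both groups the difference was 1.30 (SE 0.27, limma adjusted p = 0.105). Slc11a2, the transporter that moves iron out of endosomes after uptake by Tfrc, gave 0.89 (SE 0.22, limma adjusted p = 0.145).

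In heme uptake and synthesis, Lrp1, the receptor for heme bound to hemopexin, gave 0.90 (limma adjusted p = 0.162) for both NrasQ61K groups against WT, and Alas1, the rate-limiting enzyme of heme synthesis outside red cells, gave 0.63 (limma adjusted p = 0.194). Hp, haptoglobin, which binds free hemoglobin, gave -1.02 (limma adjusted p = 0.189). Alas2, the red cell form of the enzyme and the only further gene of these lists with the hairpin pattern in a UTR, gave -0.09. The pattern requires a fully paired stem of 5 base pairs, so a gene without a match may still carry an element of another shape.

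Iscu, the scaffold on which iron-sulfur clusters are built, was at 15.7, 10.7 and 17.9 FPKM in Tyr-NrasQ61K and at 13.001, 9.61 and 12.6 FPKM in MHCII-KO libraries, against 42.6, 19.0 and 37.4 FPKM in WT libraries. Every NrasQ61K library lay below every WT library for Iscu, as for 5 of the 51 genes and 8.44% of all genes. Its difference for both groups was -1.21 (SE 0.29, limma adjusted p = 0.135). Heph, a ferroxidase that works with ferroportin, gave -0.64 (limma adjusted p = 0.183). None of these genes passed the adjusted threshold.

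**Figure D5:**
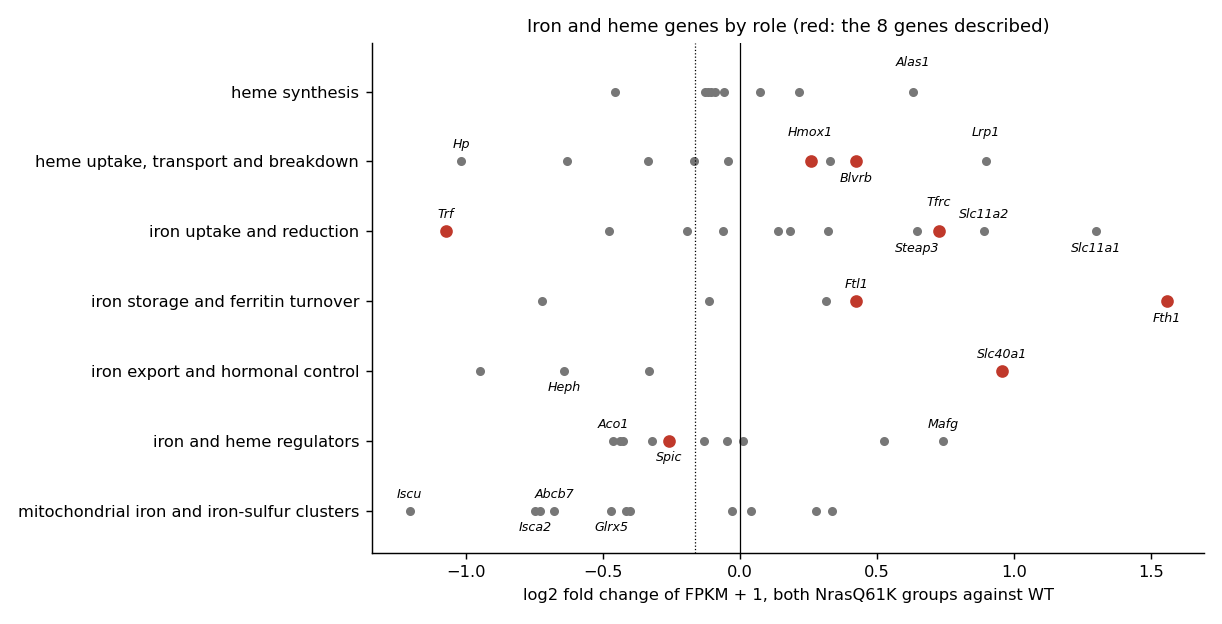
Log2 fold change of FPKM + 1 in both NrasQ61K groups against WT for the tested iron and heme genes, 1 row for each list, with the 8 genes in red, the others in grey and the median of all genes tested (-0.16) as a dotted line. Gene names are given for the 8 and for genes with an unadjusted p under 0.05; Fth1 at 1.56 lies farthest right, and Iscu at -1.21 and Trf at -1.08 farthest left.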

How the data were processed

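RNA-seq of 9 mouse libraries was analysed. The FPKM values deposited by the authors come from TopHat, Cufflinks and Cuffdiff on mm10, per the labels, and for versions, annotation and strand handling nothing was given in the sources used here. The other deposited tables hold the authors' own fold changes and p-values and were not used. FPKM keep no read number: depth relative to WT replicate 1 was recovered from the spacing of low values, and was 1.33 to 1.68 in 5 libraries. It was 0.753 in Tyr-NrasQ61K replicate 2, 0.871 in MHCII-KO replicate 2 and 0.660 in Tyr-NrasQ61K replicate 3, all uncertain, since 17, 19 and 12 genes held the most frequent spacing and 13, 17 and 11 the next. The 1.38 of Tyr-NrasQ61K replicate 1 and the 1.68 of MHCII-KO replicate 3 were uncertain too, with 46 and 26 genes against 37 and 20.

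Of 37819 entries, 18 held several values and were left out. log2(FPKM + 1) was fitted with a mean for each group and a mean-variance trend (limma 3.58.1, R 4.3.3), for genes of at least 1 FPKM in at least 3 libraries, with Benjamini-Hochberg adjustment and no replicate term. The added 1 understates the changes of low genes. In data simulated for both NrasQ61K groups against WT over 16587 genes, 57% of changes of 2 and 80% of changes of 3 (log2) were recovered, with 3.52% of calls false. The changed genes were drawn only from genes of higher WT level, which leaves out genes at the WT levels of Hmox1, Spic, Tfrc and Slc40a1. The simulated noise was independent between genes and libraries. Recovery for these lower genes, or with effects shared across a library, was not measured. Changes smaller than 2 were not simulated, so recovery at the sizes fitted for Fth1 (1.56) and Trf (-1.08) is not known. Hairpins were searched in GENCODE M21 UTRs (Watson-Crick or G-T pairs), and copies with blastn 2.17.0 (at least 90% identity over at least 50% of the coding sequence). Tables and plots used Python 3.11.15.

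The genes and lists were chosen with earlier results of these data known. Genes named were the 8, list genes called in any comparison, up to 4 per list with the smallest unadjusted p, and the 3 protein-coding genes most like each of the 8. Alternatives were the pseudocount, the filter, the scaling, library weights, the variance trend, the samples and genes fitted, a replicate block, and leaving out libraries. Adding near-identical copies was chosen after seeing the data.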

Additional observations from a re-analysis of the deposited data

How the results depend on the processing

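Fth1 stayed above and Trf below 0 against WT under every alternative run, at 1.44 to 1.87 and -1.21 to -0.84 for both NrasQ61K groups. Calls depended on the setting. Of the 8 genes, a replicate block called 2 in each of Tyr-NrasQ61K and MHCII-KO against WT (Fth1, Trf) and 3 for both groups (with Slc40a1), weights for the libraries called 4 in each (with Tfrc), and quantile normalization and median-ratio scaling each called 1 for both groups (Fth1). Leaving out any 1 library called 0. Over all genes the block called 894, 777 and 2675, and the weights 5076, 7407 and 7542, against 39, 24 and 66 in the comparisons with WT, while protein-coding genes alone gave 105, 108 and 273. Without 1 library the counts were 9 to 36, 5 to 32 and 21 to 59. The lowest weight, 0.197, went to Tyr-NrasQ61K replicate 2 and the highest, 5.22, to MHCII-KO replicate 3. After each gene's group mean was subtracted, the remaining values of same-numbered libraries correlated at -0.0384 to 0.332. This was not above 0.1 in every pair, so the numbers were not taken to pair the libraries. The cause of these differences was not tested.

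Small values changed sign. In Tyr-NrasQ61K against WT, Spic gave 0.062 with equal sums of FPKM and 0.023 without both replicate 2 libraries, and Blvrb -0.056 with weights. In MHCII-KO against Tyr-NrasQ61K, quantile normalization gave 0.12 for Hmox1, 0.038 for Spic and -0.067 for Fth1, and median-ratio scaling 0.035 for Hmox1. Equal sums gave -0.091 for Slc40a1, -0.34 for Fth1, -0.27 for Ftl1 and -0.14 for Blvrb, weights gave 0.025 for Hmox1, 0.053 for Spic, -0.093 for Fth1 and -0.054 for Ftl1, and leaving out both replicate 2 libraries gave -0.21 for Fth1. With 1 library left out, Hmox1 ran between -0.0020 and 0.56 in Tyr-NrasQ61K, between -0.056 and 0.46 in MHCII-KO and between -0.029 and 0.48 in both against WT, Spic between -0.44 and 0.087 in Tyr-NrasQ61K and between -0.50 and 0.027 in both, and Blvrb between -0.012 and 0.56 in Tyr-NrasQ61K. In MHCII-KO against Tyr-NrasQ61K the ranges were -0.33 to 0.16 for Hmox1, -0.16 to 0.61 for Slc40a1, -0.34 to 0.11 for Spic, -0.38 to 0.27 for Fth1, -0.016 to 0.31 for Ftl1 and -0.84 to 0.11 for Tfrc. Of the further iron and heme genes, the block called 2, 1 and 10 in the comparisons with WT and the weights 17, 21 and 23, while for both groups quantile normalization called 3 (Alas1, Iscu, Slc11a1), median-ratio scaling 2 (Alas1, Slc11a1) and protein-coding genes alone 2 (Iscu, Slc11a1). Scaling moved the median of all genes: -0.12, -0.22 and -0.16 against WT became 0.03, 0.01 and 0.03 with median ratios. Depth, known only in relative terms, limits the low genes most, and 3 libraries per group limit all.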

Other observations

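Targets of NRF2, a transcription factor that also induces Hmox1 and both ferritin chains, were examined as a list of 12 genes, all tested and none called by limma in any comparison. At an unadjusted p under 0.05, 1 of 12 passed for both NrasQ61K groups against WT and 0 in each of the other comparisons, where 21.7% of all genes passed in the first and 15.2% (Tyr-NrasQ61K against WT), 15% (MHCII-KO against WT) and 1.52% (MHCII-KO against Tyr-NrasQ61K) in the others. Srxn1, which repairs oxidized peroxiredoxins, gave 0.64 (SE 0.27, limma adjusted p = 0.222) and Nqo1, a quinone reductase, gave -0.64 (SE 0.30, limma adjusted p = 0.250). The list median was -0.19, against -0.16 over all genes.

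The near-identical copies of ferritin genes were highest in Tyr-NrasQ61K replicate 3. Gm6977, the copy of Fth1, was at 127.6 FPKM there and at 0.467 to 5.86 FPKM in the other 8 libraries. Gm5278, a copy of Ftl1, was at 23.0 FPKM there and at 0.197 to 1.24 FPKM elsewhere. That library also stood apart from the others on the second principal component, which carried 14.6% of the variance.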
